A study of Mus musculus with 8 samples.

Results

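The genes described here are the DNA methyltransferases Dnmt1, Dnmt3a and Dnmt3b and the TET dioxygenases Tet1, Tet2 and Tet3. They are 6 of the 55414 genes in the deposited tables, and each was found by its symbol and joined to its expected counts by its Ensembl identifier. The family was chosen by a measured value, the higher level of Dnmt3b with tolvaptan in these same libraries, so the difference between treatments is given for every member as a description. Where a member passed the threshold of the fit across all genes, that is stated beside the share of all genes that passed, and it is not independent support. RNA sequencing was done on mpkCCD cells, a mouse line with features of cortical collecting duct principal cells, derived from transgenic mice that express a viral large T antigen and used here as a single re-cloned subline. One set of 4 libraries came from cells given tolvaptan plus dDAVP, and the other set of 4 came from cells given dDAVP alone with vehicle. The vasopressin analogue dDAVP activates the V2 receptor and was present in both sets, and tolvaptan is a V2 receptor antagonist, so the comparison asks what the antagonist does on top of dDAVP. Separate cultures are not stated in the labels for the replicates, so the spread and the p-values below measure differences between these libraries, which may be partly technical.

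DNA methylation in mammals is placed mostly on cytosines that precede a guanine (CpG). Dnmt1 copies the pattern to the new strand after replication, guided there by Uhrf1, while Dnmt3a and Dnmt3b place marks on DNA that had none. The TET enzymes oxidize methylcytosine, which opens a path to its loss by dilution or by base excision repair. Dnmt3b is known for high levels in early embryonic cells and lower levels in most differentiated tissues. RNA levels of these enzymes were measured here, and neither protein nor methylation was.

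The libraries held 41179670 to 49720488 expected counts with tolvaptan plus dDAVP and 46189118 to 56203831 with dDAVP alone. No pair of libraries was alike within sampling noise, since the chi-square statistic per degree of freedom was at least 8.08 for every pair. Replicate 1 of tolvaptan plus dDAVP stood apart most, at 30.5 to 48.1 against each other library, compared with 8.08 to 24.5 among the other 7. The principal cell markers summed to 18922 to 20764 TPM, an RNA level per unit of transcript length, with tolvaptan plus dDAVP and 18011 to 20587 TPM with dDAVP alone. Most of that sum was Aqp2, at a mean of 9439 and 8947 TPM in that order, and the keratin gene Krt18, at 6381 and 6522 TPM. None of the 13 markers tested, of 14 listed, passed the threshold. Their log2 fold changes ran from -0.11 for Scnn1g to 0.38 for Aqp4, with Aqp2 at 0.05. In such bulk libraries, fewer cells that express a gene and less RNA per cell cannot be told apart.

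The promoters of the de novo enzymes are shown because these genes place CpG methylation and themselves start in CpG-rich DNA. Each RefSeq window on the GRCm38.p6 build runs from 250 bases before the annotated start to 50 after it, both genes lie on the plus strand, and capitals mark CpG. The Dnmt3b window is chr2:153649199-153649498, and the first of the Dnmt3a windows is chr12:3806730-3807029.
Dnmt3b: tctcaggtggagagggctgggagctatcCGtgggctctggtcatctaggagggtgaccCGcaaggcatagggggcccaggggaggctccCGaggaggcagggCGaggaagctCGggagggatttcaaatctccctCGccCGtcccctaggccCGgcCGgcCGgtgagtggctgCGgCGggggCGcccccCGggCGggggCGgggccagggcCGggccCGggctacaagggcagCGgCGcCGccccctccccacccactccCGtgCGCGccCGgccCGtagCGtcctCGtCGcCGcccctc
Dnmt3a: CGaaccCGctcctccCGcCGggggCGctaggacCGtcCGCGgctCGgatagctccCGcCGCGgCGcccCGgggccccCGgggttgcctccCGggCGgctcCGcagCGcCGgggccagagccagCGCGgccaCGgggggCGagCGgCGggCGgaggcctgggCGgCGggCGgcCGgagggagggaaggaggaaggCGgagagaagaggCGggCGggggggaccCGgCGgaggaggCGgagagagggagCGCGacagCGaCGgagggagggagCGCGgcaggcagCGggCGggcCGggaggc
The Dnmt3b window held 30 CpG and was 76% G or C, and 11.7% of all 32851 windows held at least as many CpG. The Dnmt3a window held 46 CpG, a number matched or exceeded by 1.65% of windows. The median over all windows was 7.

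All 6 members had a RefSeq window, 10 windows in total. The highest CpG count of a member, 57, was in the Tet2 window, and 0.152% of all windows held as many. The Tet3 window held 22 and the Tet1 window 17. The Dnmt1 windows held 33, 12 and 2, and the other Dnmt3a windows held 47 and 18. The cAMP response element, searched as TGACGTCA on both strands, was in no member window and in 1.79% of all windows. Its core, TGACG, which the full element contains, was in the Tet2 window alone among members, against 20.8% of all windows. The GC box, searched as GGGCGG on both strands, occurred 4 times in the Dnmt3b window and 6 times in the Dnmt3a window shown, and 35.7% of all windows held at least 1. E2F letters, TTTCGCGC or TTTGGCGC, were found in a Dnmt1 window with 2 matches and in no other member window, against 0.813% of all windows. The E-box, CACGTG, was in the Dnmt3a window with 18 CpG and in no other member window, against 7.15% of all windows. These matches describe letters in a fixed window and are not evidence of binding.

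Dnmt3b (ENSMUSG00000027478), a de novo methyltransferase, was the member with the clearest separation between treatments. Its RNA stood at 9.46, 8.06, 10.26 and 9.60 TPM in replicates 1 to 4 of tolvaptan plus dDAVP, and at 6.83, 6.74, 6.66 and 5.92 TPM in replicates 1 to 4 of dDAVP alone. Every tolvaptan library was above every library with dDAVP alone, and the nearest values of the groups were 8.06 TPM for tolvaptan replicate 2 and 6.83 TPM for dDAVP replicate 1. The means were 9.35 ± 0.925 TPM with tolvaptan plus dDAVP and 6.54 ± 0.417 TPM with dDAVP alone (SD, n = 4 each).

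The expected counts behind these Dnmt3b levels were 762, 745, 958 and 750 with tolvaptan plus dDAVP, against 690, 578, 580 and 566 with dDAVP alone. Scaled to library size with TMM factors, as CPM, they were 18.5, 15.6, 19.2 and 16.7 with tolvaptan plus dDAVP and 12.2, 12.4, 12.5 and 11.9 with dDAVP alone. The libraries with dDAVP alone lay close together, at 12.2 ± 0.252 CPM, while the tolvaptan libraries were more spread, at 17.5 ± 1.62 CPM. The log2 fold change from counts was 0.52 (SE 0.08, 95% interval 0.35 to 0.68), a 1.43-fold higher level.

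**Figure D1:**
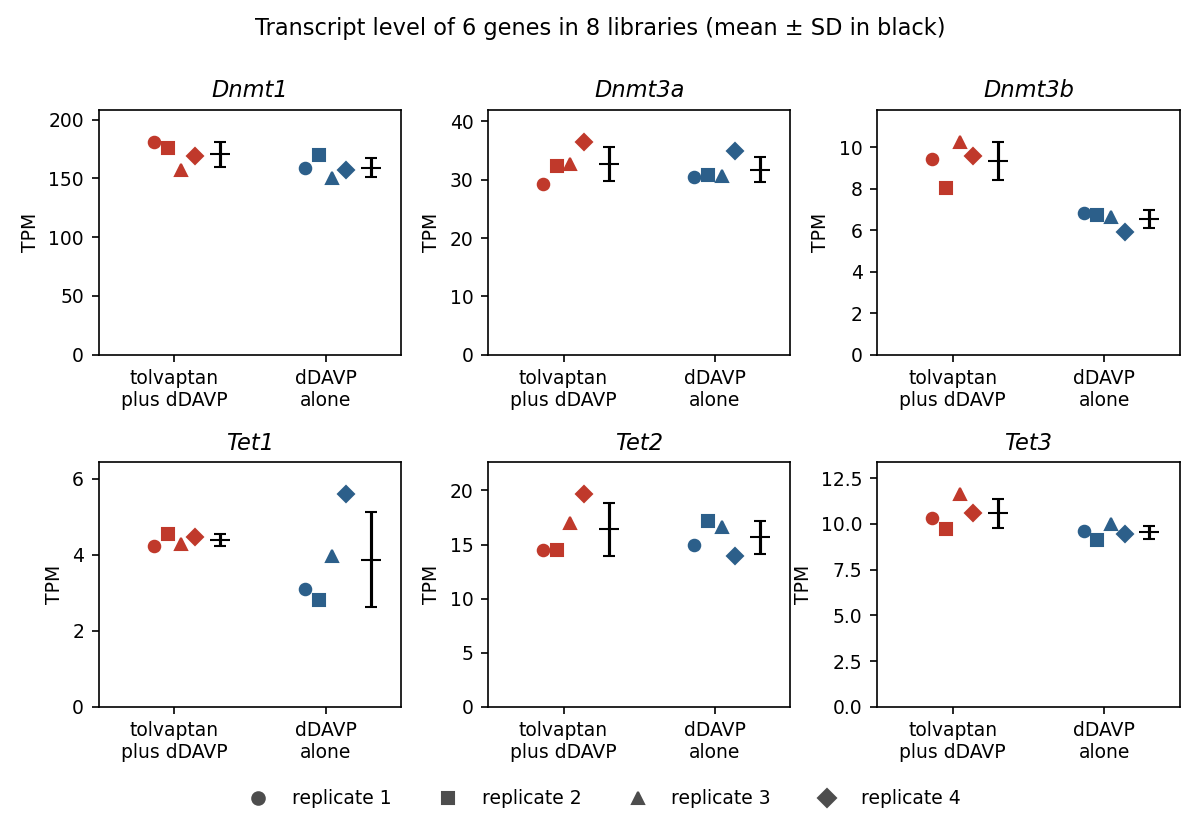
TPM of each methyltransferase and TET gene in every library, with tolvaptan plus dDAVP on the left and dDAVP alone on the right of each panel, symbols for replicate numbers, and bars for the mean and SD of 4 libraries. Dnmt3b is the only member whose groups do not overlap, with 8.06 to 10.26 TPM against 5.92 to 6.83 TPM.

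All 6 members passed the filter on low counts, and Dnmt3b was the only 1 of them past an adjusted p of 0.05 in the edgeR quasi-likelihood fit. Over all 14772 genes tested, 59 passed (0.399%), of which 27 rose (0.183%) and 32 fell (0.217%). Dnmt3b was also the only member whose groups did not overlap in CPM, as was true of 7.76% of all genes tested, 3.99% with tolvaptan above and 3.77% with tolvaptan below. Since the rule for choosing the family used this contrast, nothing is read from these counts. By fold change, 2.29% of tested genes stood above Dnmt3b, and the median log2 fold change over all of them was -0.005. The Dnmt3b difference was 0.47 on the log2 scale in replicates 1 and 2 and 0.55 in replicates 3 and 4. Both values had to be positive, since the groups did not overlap, and they are a description only.

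The call of Dnmt3b depended on which libraries were fitted. It was made when any 1 of the tolvaptan libraries was left out, replicate 1 included, and was not made when any 1 of the libraries with dDAVP alone was left out. The log2 fold change itself stayed between 0.47 and 0.57 in those 8 fits.

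Markers of early embryonic cells, where Dnmt3b is abundant, were read beside it. Of the 11 listed, 10 stayed under 1 TPM in every library, Pou5f1 reached at most 0.04 TPM with tolvaptan plus dDAVP and 0.24 TPM with dDAVP alone, and Dppa5a and Tdgf1 were at 0 in all 8 libraries. The exception was Esrrb, a nuclear receptor that the kidney also expresses, at 71.6 ± 1.51 TPM with tolvaptan plus dDAVP and 63.9 ± 5.67 TPM with dDAVP alone. Esrrb did not pass the threshold (log2 fold change 0.16, edgeR adjusted p 0.34). The groups of Esrrb did not overlap in CPM, as was true of 7.76% of all genes tested. The sum of the list, nearly all of it Esrrb, ranged over 70.04 to 73.8 TPM with tolvaptan plus dDAVP and 56.5 to 69.98 TPM with dDAVP alone.

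The markers of stromal, endothelial and immune cells summed to 6.69 to 7.54 TPM with tolvaptan plus dDAVP and 4.66 to 5.95 TPM with dDAVP alone. Nearly all of that sum was Cd68, a lysosomal membrane protein abundant in macrophages, and 11 of these 12 markers were under 1 TPM in every library. Cd68 had a log2 fold change of 0.38 and did not pass the threshold (edgeR adjusted p 0.25). Its groups did not overlap in CPM, as was true of 7.76% of all genes tested. The other marker tested, Ptprc, was at -0.16. The intercalated cell markers summed to 34.9 to 100.5 TPM with tolvaptan plus dDAVP and 37.7 to 117.2 TPM with dDAVP alone. Nearly all of that sum was Atp6v1b1, at 30.9 to 96.6 TPM and 32.7 to 112.4 TPM in that order. Of these 8 markers, 6 were under 1 TPM in every library. The proximal tubule markers summed to 8.96 to 11.7 TPM with tolvaptan plus dDAVP and 8.59 to 10.3 TPM with dDAVP alone. That sum was nearly all Lrp2, and 6 of these 7 markers were under 1 TPM in every library. The part of other cell types in the Dnmt3b difference was not tested.

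Dnmt3a (ENSMUSG00000020661), the other de novo enzyme, had levels that overlapped between the treatments. It had 29.23, 32.33, 32.70 and 36.48 TPM in replicates 1 to 4 of tolvaptan plus dDAVP, and 30.53, 30.77, 30.60 and 34.99 TPM with dDAVP alone. In each group replicate 4 was the highest library. Its log2 fold change was 0.04 (SE 0.05, 95% interval -0.07 to 0.16).

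Dnmt3b therefore took a larger part of the de novo methyltransferase RNA with tolvaptan. Dnmt3b made up 24.5%, 19.96%, 23.9% and 20.8% of the summed Dnmt3a and Dnmt3b TPM in replicates 1 to 4 of tolvaptan plus dDAVP, and 18.3%, 17.97%, 17.9% and 14.5% with dDAVP alone. The groups did not overlap, and replicate 4 with dDAVP alone was the lowest library. The Dnmt3a to Dnmt3b ratio averaged 3.52 ± 0.453 with tolvaptan plus dDAVP and 4.89 ± 0.686 with dDAVP alone (SD, n = 4 each). The same contrast chose Dnmt3b, so these shares are also a description.

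Dnmt1 (ENSMUSG00000004099), the maintenance enzyme, was at 181, 175.88, 156.71 and 168.88 TPM with tolvaptan plus dDAVP, and at 158.73, 170.04, 150.45 and 157.07 TPM with dDAVP alone. The highest libraries were tolvaptan replicates 1 and 2, but tolvaptan replicate 3 lay below replicates 1, 2 and 4 with dDAVP alone. Counts gave a log2 fold change of 0.09 (SE 0.05, 95% interval -0.02 to 0.20). Dnmt1 supplied 80.2 ± 1.97% of all methyltransferase TPM with tolvaptan plus dDAVP and 80.6 ± 1.11% with dDAVP alone, so the difference in Dnmt3b was small beside the summed level of the 3 enzymes. That sum was 213 ± 8.88 TPM with tolvaptan plus dDAVP and 197 ± 8.14 TPM with dDAVP alone.

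The level of RNA per unit of length differed widely among the members. The family was chosen by the Dnmt3b difference between treatments, and the same Dnmt3b values enter the pairs that hold Dnmt3b below. Mean TPM over all 8 libraries was 165 for Dnmt1, 32.2 for Dnmt3a, 16.0 for Tet2, 10.1 for Tet3, 7.94 for Dnmt3b and 4.13 for Tet1. Each member exceeded the next in 8 of 8 libraries. The exact two-sided sign-flip permutation p was 0.0078 for each of the 5 neighbouring pairs, the smallest p that 8 libraries allow. It was the same after Benjamini-Hochberg adjustment over the 5. The order was taken from the means of these same libraries of both treatments, so the p measures only how alike they were in it. The steps were 5.12-fold from Dnmt1 to Dnmt3a, 2.01-fold from Dnmt3a to Tet2, 1.59-fold from Tet2 to Tet3, 1.29-fold from Tet3 to Dnmt3b and 1.93-fold from Dnmt3b to Tet1.

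In single libraries, the smallest ratios between neighbours were on either side of Dnmt3b. Tet3 exceeded Dnmt3b by a factor between 1.09 and 1.60 in single libraries, and Dnmt3b exceeded Tet1 by a factor between 1.06 and 2.39. The order by mean CPM, which is not per length, was the same.

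**Figure D2:**
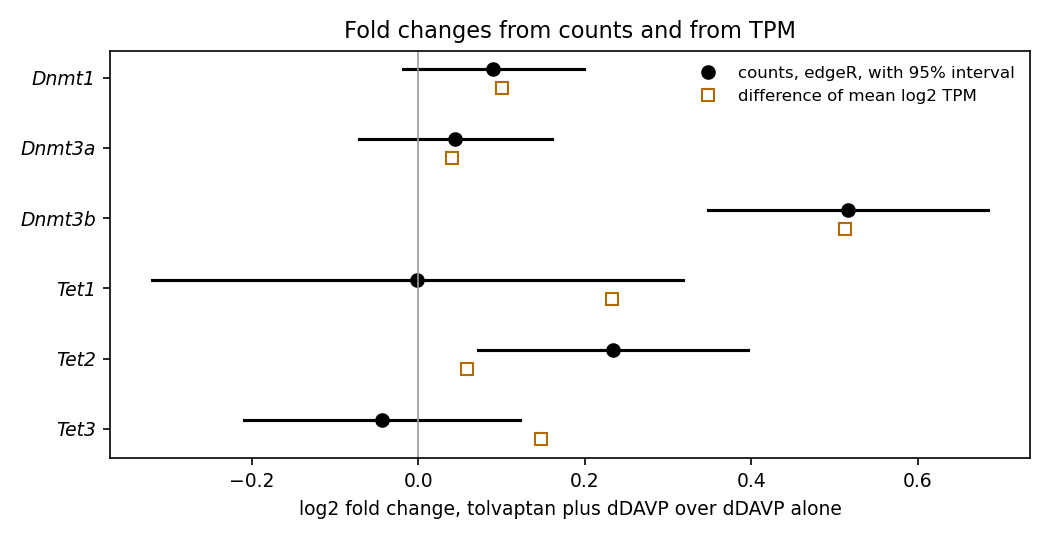
Log2 fold change of each member, tolvaptan plus dDAVP over dDAVP alone, from counts with its 95% interval (filled circles, edgeR) and as the difference of mean log2 TPM (open squares). The 2 measures coincide for the methyltransferases and part for the TET genes, where Tet2 is at 0.23 by counts and 0.06 by TPM.

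Among the TET enzymes, Tet2 (ENSMUSG00000040943) was the most abundant by TPM. It stood at 14.51, 14.47, 16.98 and 19.67 TPM with tolvaptan plus dDAVP, and at 14.93, 17.22, 16.63 and 13.95 TPM with dDAVP alone. The groups overlapped, although tolvaptan replicate 4 was the highest library and replicate 4 with dDAVP alone the lowest. In CPM, Tet2 was at 46.8, 36.8, 44.7 and 46.4 with tolvaptan plus dDAVP, against 37.0, 35.7, 38.3 and 37.6 with dDAVP alone. By counts, tolvaptan replicates 1, 3 and 4 were above all libraries with dDAVP alone and replicate 2 lay among them. The log2 fold change from counts was 0.23 (SE 0.07, 95% interval 0.07 to 0.40), while the difference of mean log2 TPM was 0.06. Tet2 did not pass the threshold, and the interval is not adjusted for the number of genes tested. In the same edgeR fit, 1652 of 14772 genes had an unadjusted p under 0.05.

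Tet3 (ENSMUSG00000034832), which acts in the early embryo and in many differentiated cells, had opposite signs by the 2 measures. Its TPM was 10.33, 9.73, 11.63 and 10.62 with tolvaptan plus dDAVP, against 9.60, 9.11, 9.99 and 9.45 with dDAVP alone, so that only tolvaptan replicate 2 lay among the values with dDAVP alone. Its CPM was 33.0, 35.2, 30.1 and 34.8 with tolvaptan plus dDAVP, against 36.0, 33.9, 30.1 and 37.2 with dDAVP alone, and these values overlapped throughout. The log2 fold change was -0.04 from counts (SE 0.08, 95% interval -0.21 to 0.12) and the difference of mean log2 TPM was 0.15.

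Tet1 (ENSMUSG00000047146), best known from embryonic stem cells, was the least abundant member. It had 4.23, 4.56, 4.29 and 4.48 TPM with tolvaptan plus dDAVP, and 3.09, 2.82, 3.98 and 5.60 TPM with dDAVP alone. The tolvaptan libraries fell within the range of the others, which ran from replicate 2 at 2.82 TPM to replicate 4 at 5.60 TPM. The counts were 353, 333, 294 and 314 with tolvaptan plus dDAVP and 366, 267, 341 and 423 with dDAVP alone, and gave a log2 fold change of -0.0009 (SE 0.15, 95% interval -0.32 to 0.32). Replicates 1 and 2 alone gave a log2 difference of 0.35 and replicates 3 and 4 alone gave -0.33, so the direction for Tet1 was not the same in both pairs.

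Summed TET levels were 31.4 ± 2.94 TPM with tolvaptan plus dDAVP and 29.1 ± 1.22 TPM with dDAVP alone, of which Tet2 made up 52.1 ± 3.07% with tolvaptan plus dDAVP and 53.9 ± 4.49% with dDAVP alone.

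The gap between counts and TPM was large for each TET gene compared with other genes. The log2 fold change from counts minus the difference of mean log2 TPM was -0.23 for Tet1, 0.18 for Tet2 and -0.19 for Tet3. Among the 11930 genes above 1 TPM in every library, the size of this gap had a median of 0.025 and a 95th percentile of 0.135, and 98.7%, 97.4% and 97.9% of them had a smaller gap than Tet1, Tet2 and Tet3 in that order. For Dnmt1, Dnmt3a and Dnmt3b the gap was -0.010, 0.0037 and 0.0037.

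The number of reads counted per unit of TPM, relative to the median gene of the same library, shows the same thing in single libraries. For Tet1 it was 1.34 ± 0.249 with tolvaptan plus dDAVP and 1.55 ± 0.195 with dDAVP alone (SD, n = 4 each). For Tet2 it was 2.23 ± 0.334 with tolvaptan plus dDAVP and 1.96 ± 0.201 with dDAVP alone, and for Tet3 it was 2.62 ± 0.359 with tolvaptan plus dDAVP and 2.96 ± 0.337 with dDAVP alone. The groups overlapped for all 3. For Dnmt3b it was 1.55 ± 0.0936 with tolvaptan plus dDAVP and 1.54 ± 0.0723 with dDAVP alone, so both measures of Dnmt3b rested on a like ratio. RSEM sums the TPM of isoforms, each by its own length, so reads assigned to other isoforms of a gene move its TPM without moving its count. The deposited tables hold whole genes and not isoforms, and the part of isoforms in these gaps was not tested.

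**Figure D3:**
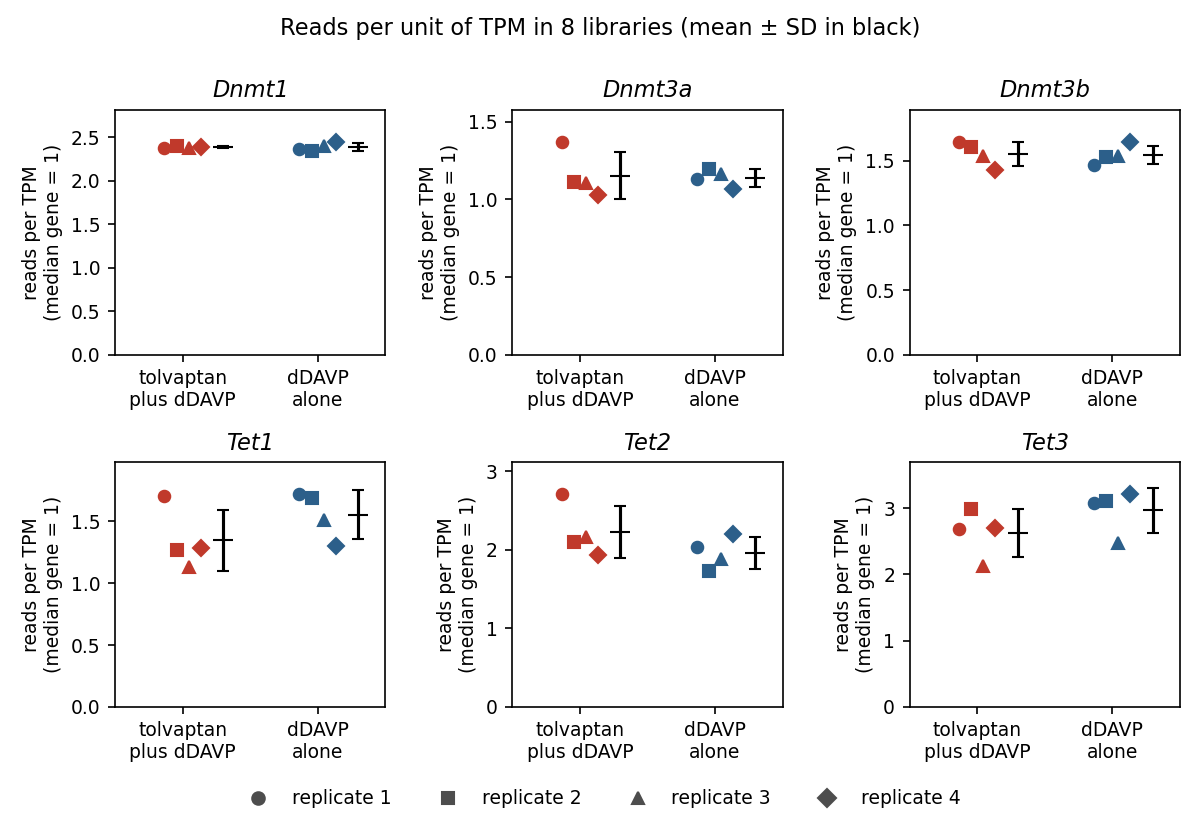
Counted reads per unit of TPM for each member in every library, relative to the median gene of that library, with tolvaptan plus dDAVP on the left and dDAVP alone on the right, symbols for replicate numbers, and bars for the mean and SD of 4 libraries. Dnmt1 and Dnmt3b keep a narrow ratio, while the TET genes vary between libraries of one group, as does Dnmt3a in tolvaptan replicate 1, at 1.37.

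Other relatives of Dnmt3b were near the detection limit. Dnmt3l, a cofactor of the de novo enzymes without catalytic activity, reached at most 0.21 TPM with tolvaptan plus dDAVP and 0.06 TPM with dDAVP alone. Dnmt3c, a rodent enzyme of the male germline that arose from a Dnmt3b duplication, had 0 counts in the tolvaptan libraries and 1 count in those with dDAVP alone. Neither was abundant enough to be tested.

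The libraries do not mark strand, so overlapping genes were looked up. In GENCODE M21, Dnmt1, Dnmt3b, Tet1 and Tet3 shared no exon bases with another gene. Dnmt3a shared 133 bases with Dnmt3aos on the opposite strand, which stood at no more than 0.05 TPM, and Tet2 shared 43 bases with Gm42567, which was at 0 TPM. The antisense gene Dnmt3bos was measured at 2.46 ± 0.642 TPM with tolvaptan plus dDAVP and 2.35 ± 0.468 TPM with dDAVP alone (log2 fold change 0.01, 95% interval -0.56 to 0.58), an interval that holds both 0 and the Dnmt3b value.

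Genes linked to DNA methylation, partners of the methyltransferases among them, were read as lists. None of 109 tested genes in 8 lists, of 158 listed, rose or fell in the edgeR fit, in which 0.399% of all genes passed. At an unadjusted p under 0.05 there were 9 of the 109, beside 1652 of all 14772 genes. DESeq2 called 3 of the 109, beside 337 of 14772, and limma on log2(TPM + 1) called 0, beside 22 of 14772. Groups did not overlap for 8 list genes (7.34%), beside 7.76% of all genes.

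The 20 tested partners and recruiters of the de novo enzymes ranged from -0.27 to 0.20 on the log2 scale, with a median of 0.00. The most abundant were Cdca7 (0.12) and Hells (-0.01), which form a chromatin remodelling complex needed for methylation, Trim28 (0.03), a corepressor of zinc finger proteins that recruits silencing enzymes, and Cdca7l (-0.08). The 9 partners of maintenance methylation had a median of -0.03. Among them Uhrf1, which brings Dnmt1 to replicated DNA, was at 102 ± 9.42 TPM with tolvaptan plus dDAVP and 91.6 ± 8.93 TPM with dDAVP alone, a log2 fold change of 0.11 (95% interval -0.04 to 0.26). The replication clamp Pcna was at -0.05, the histone deacetylase Hdac2 at -0.11 and the DNA ligase Lig1 at -0.06.

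The 15 tested readers of methylated or bare CpG had a median log2 fold change of 0.00, with Mbd3 at 0.03, Mbd2 at -0.05, Cxxc5 at -0.07 and Mbd1 at 0.08. The 15 genes that supply or set TET cofactors had a median of -0.02, with the mitochondrial enzymes Idh2 at -0.05, Sdha at 0.08, Sdhb at -0.02 and Sdhd at -0.02. The 20 genes of the methyl donor cycle also had a median of -0.02. In that cycle Mat2a, which makes S-adenosylmethionine, was at 0.10, the thymidylate synthase Tyms at -0.04, and the folate enzymes Shmt2 and Mthfd1 at 0.01 and -0.02.

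The 17 genes of active demethylation and base excision repair had the lowest median of the lists, at -0.08, beside -0.005 over all genes tested. Their most abundant members were the endonuclease Apex1 (0.07), Gadd45g (-0.15), Parp1 (0.05) and the scaffold Xrcc1 (-0.02). A further gene of this list was chosen after its values were seen. Gadd45a, a stress-induced gene linked to demethylation by repair, was at 25.78, 25.84, 24.16 and 30.40 TPM with tolvaptan plus dDAVP, and at 31.86, 36.93, 33.75 and 35.61 TPM with dDAVP alone. The groups did not overlap, and the log2 fold change was -0.45 (SE 0.09), with an adjusted p of 0.0589 in edgeR and 0.000353 in DESeq2.

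Gadd45b, a relative of Gadd45a, likewise passed in DESeq2 and not in edgeR and was chosen after its values were seen. It had a log2 fold change of -0.32 (adjusted p 0.192 in edgeR and 0.0443 in DESeq2).

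Lists of genes whose silencing depends on methylation were also read. All 24 germline genes stayed under 1 TPM in every library and summed to 1.37 to 2.19 TPM with tolvaptan plus dDAVP and 1.19 to 1.90 TPM with dDAVP alone. Only Tdrd1 and Piwil2 could be tested, and 3 of the 24 were at 0 throughout. Of 29 imprinted genes, for which some or all transcripts come from the allele of a single parent, 11 could be tested. Their median log2 fold change was -0.04, from levels that sum all transcripts of a gene and both alleles. The most abundant were Gnas (-0.07), Snrpn (-0.04), Plagl1 (-0.09) and Inpp5f (0.01).

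**Figure D4:**
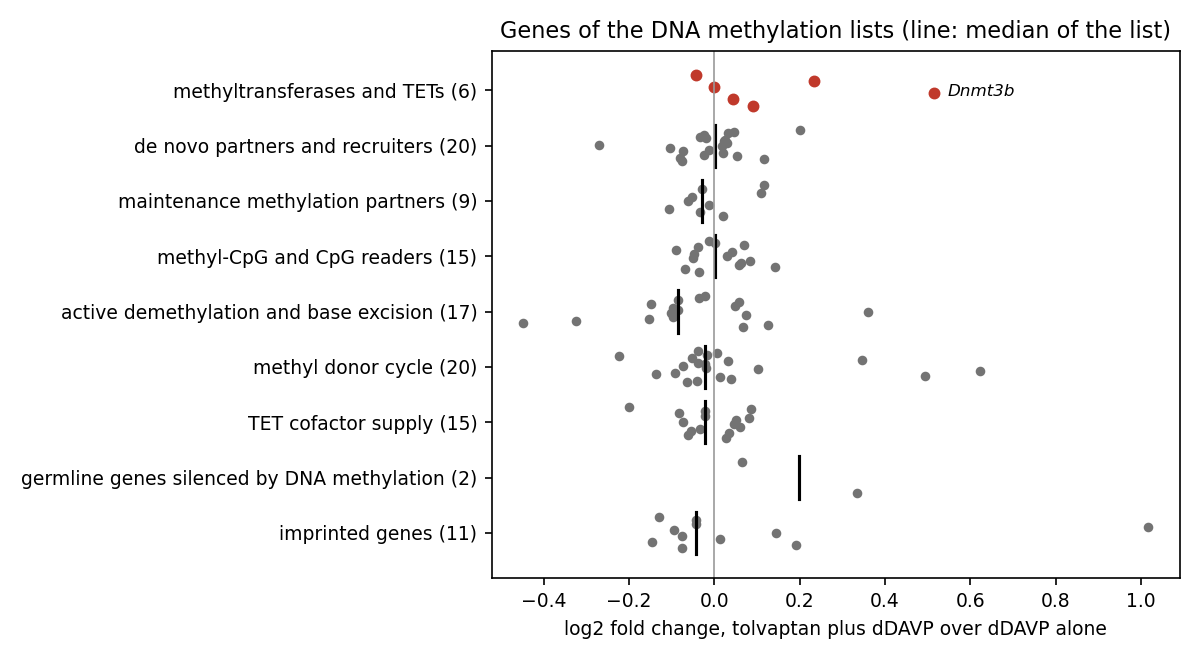
Log2 fold change, tolvaptan plus dDAVP over dDAVP alone, of every tested gene (points) in the 8 lists and in the 6 methyltransferase and TET genes, with a line at the median of each list and the number tested in parentheses. No list gene passed the threshold, and list medians with 9 or more tested genes lie between -0.08 and 0.00.

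The patterns most like each member were sought among 10175 tested genes with a mean of at least 5 TPM, by the correlation of log2 CPM deviations from the group mean over the 8 libraries. For Dnmt3b the nearest were 6720489N17Rik (r = 0.96), Snapin (0.94), Ago3 (0.94), Ap4m1 (0.92) and Exoc6 (0.92). Their log2 fold changes with tolvaptan were -0.08, -0.006, 0.02, -0.005 and -0.009 in that order, all smaller than the 0.52 of Dnmt3b. The nearest to the other members were Uck2 for Dnmt1 (0.98), Phtf2 for Dnmt3a (0.99), Coro1b for Tet1 (1.00), Gjb1 for Tet2 (1.00) and Kat2a for Tet3 (0.96). With so many candidates and 8 libraries that share their depth and preparation, high values of r arise among unrelated genes, and these are a description only.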

How the data were processed

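Each library was made from cDNA prepared with a SMARTer kit and tagmented with a Nextera XT kit, which does not mark strand. Per the labels the authors used STAR and RSEM, with versions not given in the sources used here, and the study's methods name the mouse Ensembl annotation. The authors deposited RSEM expected counts per gene, not normalized, and TPM, which is corrected for length and scaled to a like sum in each library. Their own tables of fold changes, p-values and term enrichment were not used.

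Expected counts were rounded. Genes reaching 10 counts in 4 or more of the 8 libraries, 14772 in all, were fitted with edgeR 4.0.16 in R 4.3.3 (TMM, quasi-likelihood, no covariate, Benjamini-Hochberg over all genes, threshold 0.05, two-sided), which took the place of the DESeq2 of the study. Alternatives were DESeq2 1.42.0, limma 3.58.1 with a trend on log2(TPM + 1) and log2(TPM + 0.1), other size factors and filters, a replicate block, and each library left out. The edgeR fit was tested on simulated counts. Groups came from the sample titles.

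Members and lists were chosen with earlier results of these data known. Genes of the DNA methylation lists were named if they passed the threshold or were among the 4 of their list with the highest mean TPM. Gadd45a and Gadd45b met neither condition and were chosen after their values were seen, and Dnmt3l was named as a relative of Dnmt3b. Promoter windows came from RefSeq (GRCm38.p6) and were matched by symbol, and 1399 genes had no symbol. One list gene is not reported here, and its values remained in the fits and counts.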

Additional observations from a re-analysis of the deposited data

Results flagged for a closer look

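A library that stood apart from the other 3 of its group was looked for in 54 groups of values, and 4 were found, where chance gives about 1 in 20. Replicate 4 with dDAVP alone had 34.99 TPM of Dnmt3a, with the nearest library at 30.77 TPM. In CPM its Dnmt3a was at 45.6, against 42.1, 44.0 and 43.5 in replicates 1 to 3, and was not flagged. In the same library, Dnmt3b made up 14.5% of the summed Dnmt3a and Dnmt3b TPM (14.47%, nearest 17.87%), and the Dnmt3a to Dnmt3b ratio was 5.91, with the nearest at 4.59. These 3 share the Dnmt3a value of 1 library and are not separate events. Gadd45b stood at 37.25 TPM in replicate 1 of tolvaptan plus dDAVP, with the nearest library at 44.81 TPM.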

How the results depend on the processing

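The Dnmt3b log2 fold change stayed between 0.45 and 0.57 over the alternatives, and its call was made in 10 of 17, being lost with a replicate block, under both limma fits and without any 1 library of dDAVP alone. No other member was called in any of them. Genes called numbered 59, against 256 with no filter, 337 with DESeq2, 22 with limma on log2(TPM + 1), 28 on log2(TPM + 0.1), 17 with the replicate block and 20 to 82 with 1 library left out. Risen genes made up 27 of the 59, 128 of 256, 199 of 337, 3 of 22, 8 of 28 and 3 of 17. List calls numbered 0, against 3 with no filter, 3 with DESeq2 and 0 to 1 with 1 library left out. Tet1 was at 0.35 in replicates 1 and 2 and -0.33 in replicates 3 and 4. On log2(TPM + 1) and log2(TPM + 0.1), Tet2 was at 0.055 and 0.058 and Tet3 at 0.13 and 0.15. The cause of these shifts was not tested. With 1 library left out, the log2 fold change ran from 0.07 to 0.13 for Dnmt1, 0.02 to 0.07 for Dnmt3a, 0.47 to 0.57 for Dnmt3b, -0.10 to 0.13 for Tet1, 0.20 to 0.31 for Tet2 and -0.10 to 0.00 for Tet3. Same-numbered libraries correlated at -0.01, 0.03, 0.16 and -0.01 in their deviations from the group means. Genes with a count numbered 26690 and 27685 in replicates 1 and 2 of tolvaptan plus dDAVP, against 23883 and 24195 in replicates 3 and 4. With dDAVP alone they numbered 26314 and 29246 in replicates 1 and 2, against 22203 and 23083 in replicates 3 and 4. Whether the numbers pair the samples or mark a batch was not tested. Under the replicate block Dnmt3b was at 0.51. The order of the members' levels held without each library.

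With 4 libraries a group, differences in Tet1 as large as its interval, -0.32 to 0.32 on the log2 scale, could not be told from no difference.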
